A study of Canis lupus familiaris with 9 samples.

Results

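ATP-binding cassette (ABC) transporters are membrane proteins that use ATP to move drugs, lipids and metabolites. Transcripts of 9 ABC transporter genes that carry drugs or sterols were examined in canine T cell lymphoma and in normal CD4+ T cells. The set was listed by gene name, with earlier results of these data known. It holds the drug exporters ABCB1, ABCC1, ABCC4, ABCC5 and ABCG2, and the lipid transporters ABCA1, ABCG1, ABCA2 and ABCA7. All 9 were found among 28008 features, 8 under their own symbols. The remaining gene, ABCB1, is listed by the authors as MDR1, a synonym that the RefSeq gene table for the dog assigns to ABCB1.

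The study set 6 CD4+ peripheral T cell lymphomas (PTCL, cancers of mature T cells) against 3 libraries of sorted CD4+ T cells from healthy dogs. Boxer lymphomas 1 to 3 came from a castrated male aged 6 years, a spayed female aged 8 years and a castrated male aged 6 years. Other-breed lymphomas 1 to 3 came from a spayed Cavalier King Charles Spaniel aged 3 years, a spayed Rhodesian Ridgeback aged 4 years and a castrated Collie aged 11 years. Controls 1 to 3 were 1-year-old unneutered female hounds. The labels are silent on how the dogs were treated, on which tissue the lymphomas came from and on whether they were sorted. Breed, age, neutering and any sorting therefore cannot be told apart from disease, while 3 of the 6 lymphomas, like all controls, came from females. Nothing states that the controls were different dogs, so the p-values here reflect variation among the libraries, which may be technical.

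ABCB1 encodes P-glycoprotein, which pumps vincristine, doxorubicin and many other hydrophobic drugs out of cells and is also made by normal lymphocytes. The ABCC proteins export organic anions, among them drug conjugates, leukotrienes and cyclic nucleotides. ABCA1 and ABCG1 pass cholesterol to lipoproteins and are switched on by the liver X receptors (LXR), nuclear receptors that sense oxidised sterols.

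Each library held 11710623 to 18488468 reads, and values are normalised read counts, which are the authors' reads divided by 1 factor per library. Of 9 T cell markers 8 were found (CD4 is not analysed here), and the sum of their levels ranged between 47643 and 87075 for lymphomas, and between 71614 and 74127 for controls. Summed macrophage markers (11 of 12 found) ranged between 815 and 18576 for lymphomas, and between 124 and 199.8 for controls, and 9 of the 10 tested rose (10 of 10 without other-breed lymphomas 1 and 2); no found macrophage marker was at 0 throughout the controls. Stromal markers (10 of 10) had sums between 147 and 11706 in lymphomas, lowest in other-breed lymphomas 1 and 2, with a control maximum of 60.1; LUM and MMP2 were at 0 in every control. Endothelial markers (6 of 8) had sums between 94.2 and 6244 in lymphomas, again lowest in other-breed lymphomas 1 and 2, with 306 to 691 for controls. Counts without these 2 libraries are given beside the gene lists.

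ABCB1 was lower in every lymphoma than in every control, ABCA2 was higher in every lymphoma, and ABCC5 was higher in 5 of 6 lymphomas. The remaining 6 genes did not pass an adjusted p of 0.05 between lymphomas and controls (limma on log2(value + 1), Benjamini-Hochberg over 15977 features). By that test 2 of 9 transporter genes rose, against 19.4% of all features tested, and 1 of 9 fell, against 15.7% of all features. Together 3 of 9 were called, against 35% of all features, so the share called was near the background. The groups did not overlap for 2 of 9 genes, against 35.8% of all features: 1 gene lay wholly higher in lymphomas (18.5% of features) and 1 wholly lower (17.2%). The median log2 fold change of the 9 genes was 0.49, beside 0.05 over all features. Without other-breed lymphomas 1 and 2, 3 of 9 genes rose, ABCA1 joining ABCC5 and ABCA2, and 1 fell. The background moved too in that fit, to 3550 features higher and 2696 lower, from 3092 and 2504 with all libraries. The filter was applied anew in that fit, and the number of features it tested is not given here. Its counts therefore have no share of all features beside them and cannot be weighed against the background. The list counts given below without these 2 libraries come from the same fit and have the same limit.

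**Figure D1:**
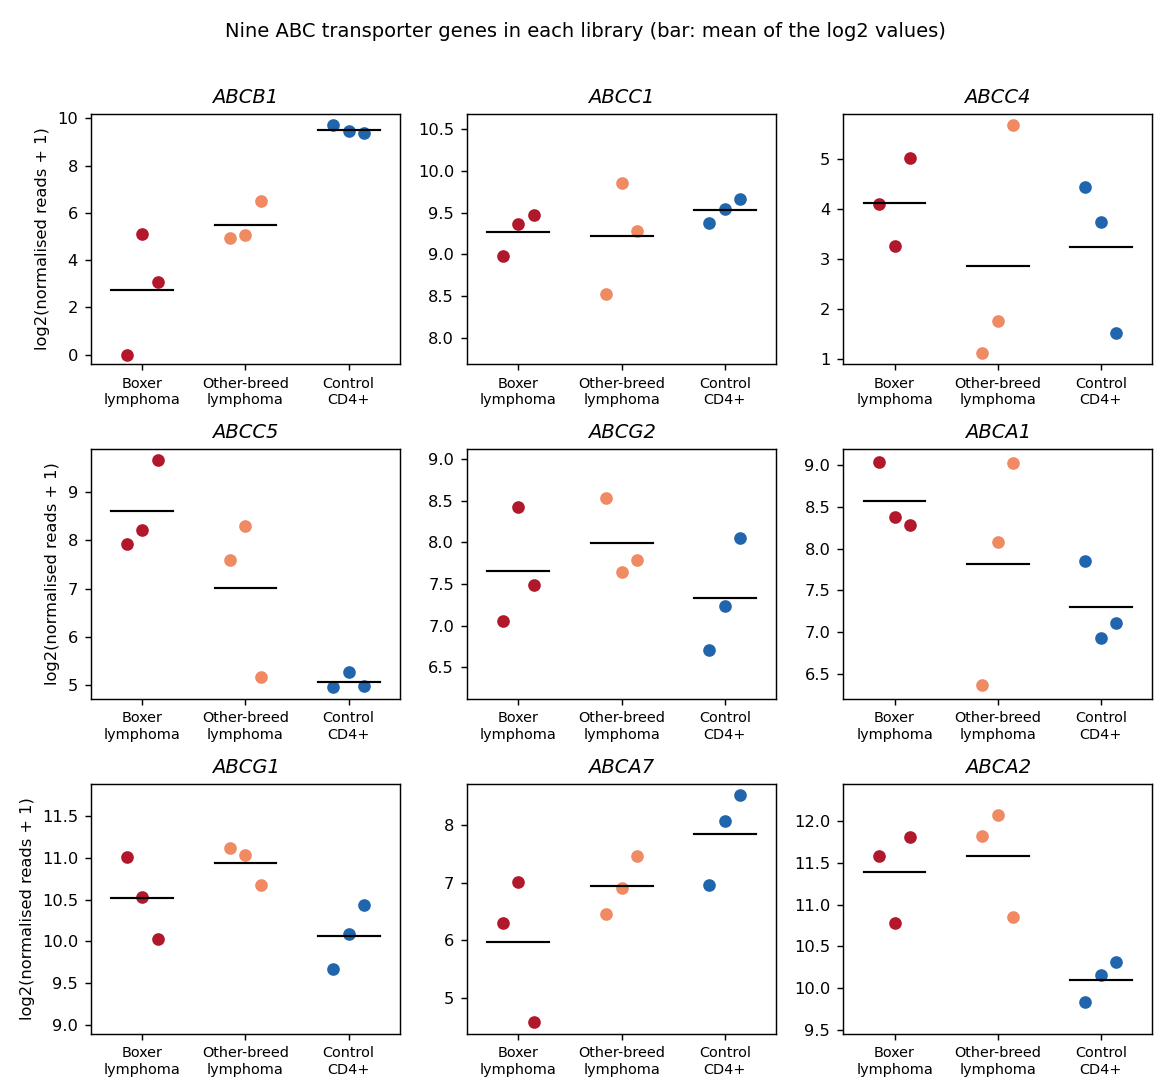
Normalised reads of each transporter gene on the log2(value + 1) scale in 3 Boxer lymphomas, 3 other-breed lymphomas and 3 control CD4+ libraries; each point is a library and the bar is the mean of the log2 values. ABCB1 lies at 0 to 90.2 reads in the lymphomas and at 661 to 835 in the controls, ABCA2 shows the opposite order, and vertical scales differ between panels.

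ABCB1 (ENSCAFG00000001835) was the gene with the largest difference of the set. It had 0, 33.2 and 7.29 normalised reads in Boxer lymphomas 1 to 3, and 29.4, 32.3 and 90.2 in other-breed lymphomas 1 to 3, against 835, 700.1 and 661 in controls 1 to 3. All 6 lymphomas lay far below the lowest control, and the spread among the controls was small. The mean was 32.1 ± 31.7 in lymphomas (SD, n = 6) and 732 ± 91.4 in controls (SD, n = 3), so the control mean was 22.8 times the lymphoma mean. On the log2 scale ABCB1 fell by 5.40 ± 1.16 (SE, 95% interval -7.97 to -2.83, limma adjusted p = 0.00588). The log2 fold change was smaller in size by edgeR and DESeq2 on recovered reads, at -4.54 and -4.52.

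Boxer lymphoma 1 had 0 reads of ABCB1 among 16901571. A count of 0 allows up to 3 reads, or 2.55 normalised reads, which covers counting error only. The control mean was 287 times that limit. Without this library the log2 fold change was -4.58 (limma adjusted p = 0.00106).

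In bulk RNA, fewer cells that express a gene and less of its RNA per cell cannot be told apart. Relative to CD3E, a subunit of the T cell receptor complex, ABCB1 was at 0 to 5.11 normalised reads per 1000 CD3E reads in the lymphomas and at 31.0 to 42.4 in the controls. The gap between the groups was therefore also present per unit of this T cell transcript. Endothelial cells can make P-glycoprotein as well. Summed endothelial markers were 1444, 2289.5 and 4154 in Boxer lymphomas 1 to 3, and 94.2, 100.2 and 6244 in other-breed lymphomas 1 to 3. Both this sum and ABCB1 were highest among the lymphomas in other-breed lymphoma 3. The other libraries did not keep that order: ABCB1 was 7.29 in Boxer lymphoma 3, and 29.4 and 32.3 in other-breed lymphomas 1 and 2. The part of endothelial cells was not tested. A truncating germline deletion of ABCB1 is common in Collies, the breed of other-breed lymphoma 3, and the labels give no genotype.

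The genes next to ABCB1 did not share a difference of its size. The RefSeq gene table for the German Shepherd assembly was used for gene order only, and the 4 protein-coding genes on either side were taken after the ABCB1 values had been seen, so they were described without a test. ABCB4, its close relative and a phosphatidylcholine transporter of bile, had 0 to 10.2 normalised reads in lymphomas and 0 to 8.19 in controls. How many reads align to both paralogs was not tested. CROT, a peroxisomal carnitine acyltransferase, averaged 179 in lymphomas and 644 in controls, with every lymphoma below every control. DMTF1, a transcription factor, averaged 836 in lymphomas and 1723 in controls, again without overlap. These are 3.61-fold and 2.06-fold lower means in lymphomas, beside 22.8-fold for ABCB1. Over all features tested, 17.2% lay wholly lower in lymphomas, as CROT and DMTF1 did. SLC25A40, DBF4, TMEM243, RUNDC3B and ADAM22 overlapped between the groups. The lymphoma mean was lower for RUNDC3B (8.18, against 17.5 in controls), SLC25A40 (330, against 554) and TMEM243 (52.3, against 59.7). It was higher for DBF4, a regulator of replication origins (768, against 541 in controls), and for ADAM22 (9.60, against 7.47).

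**Figure D2:**
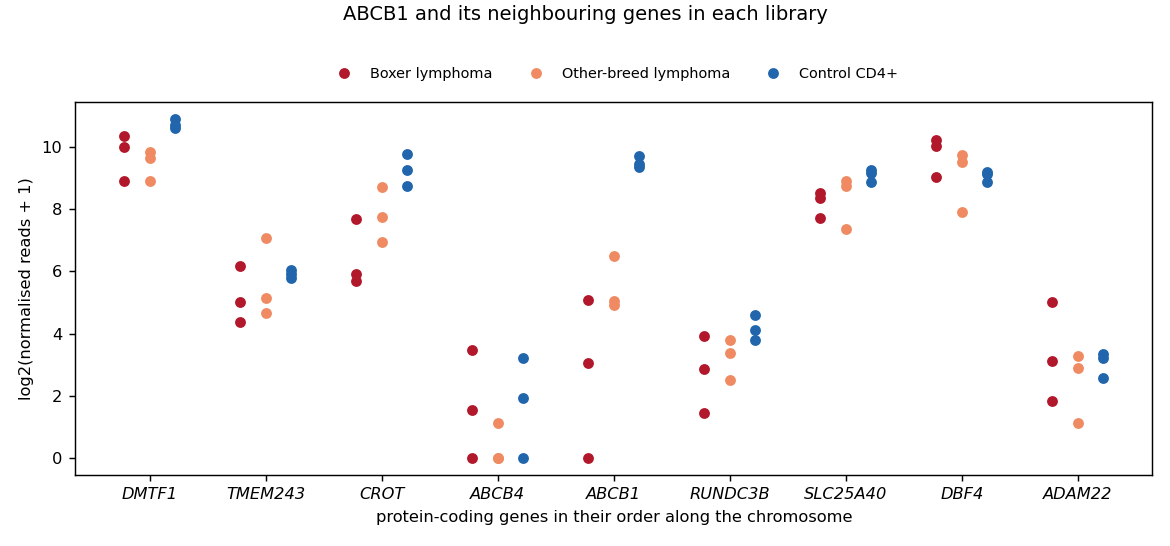
Normalised reads on the log2(value + 1) scale of ABCB1 and its 4 neighbouring protein-coding genes on either side, with 1 point per library for Boxer lymphomas, other-breed lymphomas and controls. The control points of ABCB1 stand clear of all lymphoma points, while neighbours such as SLC25A40 (163 to 477 normalised reads in lymphomas, 469.5 to 617 in controls) overlap.

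Among the ABCC exporters only ABCC5 passed the test. ABCC5 (ENSCAFG00000012085) exports cyclic nucleotides and nucleotide analogues. It had 240.4, 297 and 809 normalised reads in Boxer lymphomas 1 to 3, and 192, 315 and 35.0 in other-breed lymphomas 1 to 3, against 30.0, 38.0 and 30.6 in controls 1 to 3. Other-breed lymphoma 3 lay inside the control range, and the other 5 lymphomas lay far above the highest control.

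The mean of ABCC5 was 315 ± 262 in lymphomas (SD, n = 6) and 32.9 ± 4.44 in controls (SD, n = 3). Its log2 fold change was 2.74 ± 0.76 (SE, 95% interval 1.06 to 4.41, limma adjusted p = 0.0187). The size of the change held when any single control was left out, at 2.68, 2.84 and 2.69 without controls 1, 2 and 3, but the adjusted p was then 0.067, 0.0577 and 0.0664. With other-breed lymphomas alone the log2 fold change was 1.95 (limma adjusted p = 0.1), and with Boxer lymphomas alone it was 3.52 (limma adjusted p = 0.00152).

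ABCC1 (ENSCAFG00000018208), or MRP1, exports glutathione conjugates and leukotriene C4 as well as anthracyclines. It had 505, 658 and 707 normalised reads in Boxer lymphomas 1 to 3, and 366, 924 and 619.8 in other-breed lymphomas 1 to 3, against 663, 747 and 811 in controls 1 to 3. Lymphoma values lay on both sides of the control range, 4 below it and 1 above. The log2 difference was -0.29 ± 0.26 (SE, 95% interval -0.86 to 0.29, limma adjusted p = 0.412).

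ABCC4 (ENSCAFG00000005433), or MRP4, exports prostaglandins and cyclic nucleotides. It was scarce throughout, at 16.1, 8.53 and 31.2 normalised reads in Boxer lymphomas 1 to 3, and 1.18, 2.37 and 49.9 in other-breed lymphomas 1 to 3, against 20.5, 12.4 and 1.85 in controls 1 to 3. In reads, these values stand for 1 to 47 per lymphoma and 2 to 15 per control. Its log2 difference of 0.26 ± 1.10 (SE, 95% interval -2.17 to 2.69, limma adjusted p = 0.871) changed sign in several alternative fits and was 1.28 without other-breed lymphomas 1 and 2 (limma adjusted p = 0.259), so no direction was detectable at this depth.

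ABCG2 (ENSCAFG00000009638), the breast cancer resistance protein, exports urate, porphyrins and mitoxantrone. It had 132, 341 and 179 normalised reads in Boxer lymphomas 1 to 3, and 369.6, 199.5 and 219.7 in other-breed lymphomas 1 to 3, against 104, 150.3 and 265 in controls 1 to 3. The groups overlapped, with 2 lymphomas above the highest control. The log2 difference was 0.49 ± 0.39 (SE, 95% interval -0.38 to 1.36, limma adjusted p = 0.352).

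ABCA2 was the lipid transporter that rose. ABCA2 (ENSCAFG00000023212) resides in lysosomes and endosomes, acts in sterol trafficking and is best known from myelin-forming cells. It had 3069, 1751 and 3587 normalised reads in Boxer lymphomas 1 to 3, and 3605, 4313 and 1849.9 in other-breed lymphomas 1 to 3, against 908, 1141 and 1265 in controls 1 to 3. Every lymphoma lay above every control. The mean was 3029 ± 1031 in lymphomas (SD, n = 6) and 1105 ± 181 in controls (SD, n = 3), a ratio of 2.74, and the log2 fold change was 1.39 ± 0.30 (SE, 95% interval 0.73 to 2.05, limma adjusted p = 0.00576).

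ABCG1 (ENSCAFG00000010285) loads cholesterol onto high-density lipoprotein and restrains sterol levels in dividing T cells of mice. It had 2057, 1477 and 1042 normalised reads in Boxer lymphomas 1 to 3, and 2216, 2099 and 1641 in other-breed lymphomas 1 to 3, against 813, 1085 and 1382 in controls 1 to 3. Of the 6 lymphomas 5 lay above all controls, and Boxer lymphoma 3 lay inside their range. The log2 difference was 0.67 ± 0.26 (SE, limma adjusted p = 0.0676), and it was 0.81 without Boxer lymphoma 3 (limma adjusted p = 0.019) and 0.88 with other-breed lymphomas alone (limma adjusted p = 0.0269). It was 0.46 with Boxer lymphomas alone (limma adjusted p = 0.249) and 0.47 without control 1 (limma adjusted p = 0.258), and it passed in 3 of 22 alternatives, DESeq2 being the remaining one.

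ABCA1 (ENSCAFG00000002727) transfers cholesterol and phospholipid to lipid-poor apolipoprotein A-I and is abundant in macrophages. It had 525, 334 and 310.3 normalised reads in Boxer lymphomas 1 to 3, and 81.2, 269.7 and 520.1 in other-breed lymphomas 1 to 3, against 231, 121 and 137 in controls 1 to 3. Other-breed lymphoma 1 lay below all controls and the other 5 lymphomas above them. The log2 difference was 0.90 ± 0.53 (SE, limma adjusted p = 0.21). Without other-breed lymphoma 1 it was 1.26 (limma adjusted p = 0.0137), and with Boxer lymphomas alone it was 1.27 (limma adjusted p = 0.0213). With other-breed lymphomas alone it was 0.52 (limma adjusted p = 0.572), and 3 of 22 alternatives passed, the remaining one leaving out other-breed lymphomas 1 and 2.

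The summed macrophage markers were 8378, 3948 and 9350.0 in Boxer lymphomas 1 to 3 and 815, 2699 and 18576 in other-breed lymphomas 1 to 3. The lymphoma with the lowest macrophage markers was also the lowest for ABCA1. The order was otherwise loose: Boxer lymphoma 3 had more macrophage marker RNA than Boxer lymphoma 1 but less ABCA1 (310.3, against 525), and all 3 controls had more ABCA1 than other-breed lymphoma 1 with fewer macrophage markers. For ABCG1, other-breed lymphoma 1 had the highest level of all libraries. The part of macrophage RNA in the ABCA1 and ABCG1 values was not tested.

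**Figure D3:**
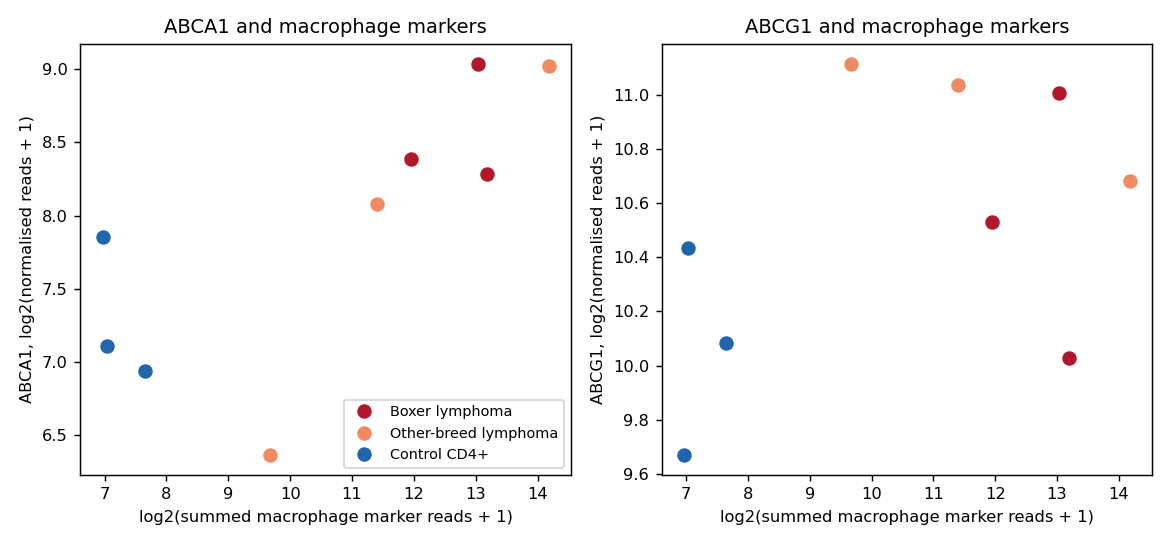
ABCA1 (left) and ABCG1 (right) against the summed macrophage markers in the 9 libraries, both on the log2(value + 1) scale and coloured by group. Other-breed lymphoma 1 has the lowest macrophage sum of the lymphomas (815) together with the lowest ABCA1 (81.2) and the highest ABCG1 (2216).

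ABCA7 (ENSCAFG00000019617), a close homologue of ABCA1 that moves phospholipid and takes part in phagocytosis, had 78.2, 128 and 22.9 normalised reads in Boxer lymphomas 1 to 3, and 87.1, 119.9 and 175 in other-breed lymphomas 1 to 3, against 123, 267 and 367 in controls 1 to 3. Control 1 lay among the lymphoma values, and 4 lymphomas lay below all controls. The log2 difference was -1.39 ± 0.60 (SE, 95% interval -2.71 to -0.07) and did not pass by limma (adjusted p = 0.0939), while DESeq2's Wald test on recovered reads gave -1.31 (adjusted p = 0.0491).

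On the log2 scale 8 of the 9 genes had a larger SD among the lymphomas than among the controls. The share of all features with a larger SD in lymphomas was not computed, so the count is not a trait of the set. All controls were 1-year-old female hounds, while the lymphomas differed in breed, age and sex. The ABCB1 SD in lymphomas includes libraries with 0 and 7 reads, where the log2 value depends on the pseudocount of 1. The SD of the log2 values was 2.29 in lymphomas and 0.18 in controls for ABCB1, 1.47 and 0.18 for ABCC5, and 0.54 and 0.24 for ABCA2. For ABCG2 it was 0.57 in lymphomas and 0.68 in controls. No lymphoma was at the same end of the range for every gene: other-breed lymphoma 3 was the highest lymphoma for 3 genes, and other-breed lymphoma 1 the lowest for 3 genes and the highest for 2.

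Boxer and other-breed lymphomas were then compared without the controls. By limma, 0 of 9 genes passed, against 0% of the 15112 features tested, where 753 features had an unadjusted p under 0.05 and none of the 9 genes did. The edgeR test also called 0 features, and DESeq2 called 44 higher and 58 lower, none of them a gene of the set. In each of the 9 genes the Boxer and other-breed values overlapped, while 10.7% of all features did not, 4.99% with Boxer values higher and 5.7% with Boxer values lower.

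ABCB1 averaged 13.5 ± 17.4 normalised reads in Boxer lymphomas and 50.7 ± 34.3 in other-breed lymphomas (SD, n = 3 each), a log2 difference of -2.78 ± 1.32 (SE, 95% interval -5.91 to 0.34, limma adjusted p = 0.881). ABCC5 averaged 449 ± 313 in Boxer lymphomas and 181 ± 140.2 in other-breed lymphomas (SD, n = 3 each), a log2 difference of 1.58 ± 0.87 (SE, 95% interval -0.47 to 3.62, limma adjusted p = 0.881). Without Boxer lymphoma 1, which had 0 reads, the ABCB1 difference was -1.43, and without other-breed lymphoma 3 the ABCC5 difference was 0.65. The intervals over all 6 lymphomas are wide and do not show that the lymphoma groups are alike. For ABCC1 the interval was -0.81 to 0.92 and for ABCA2 -1.14 to 0.75.

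**Figure D4:**
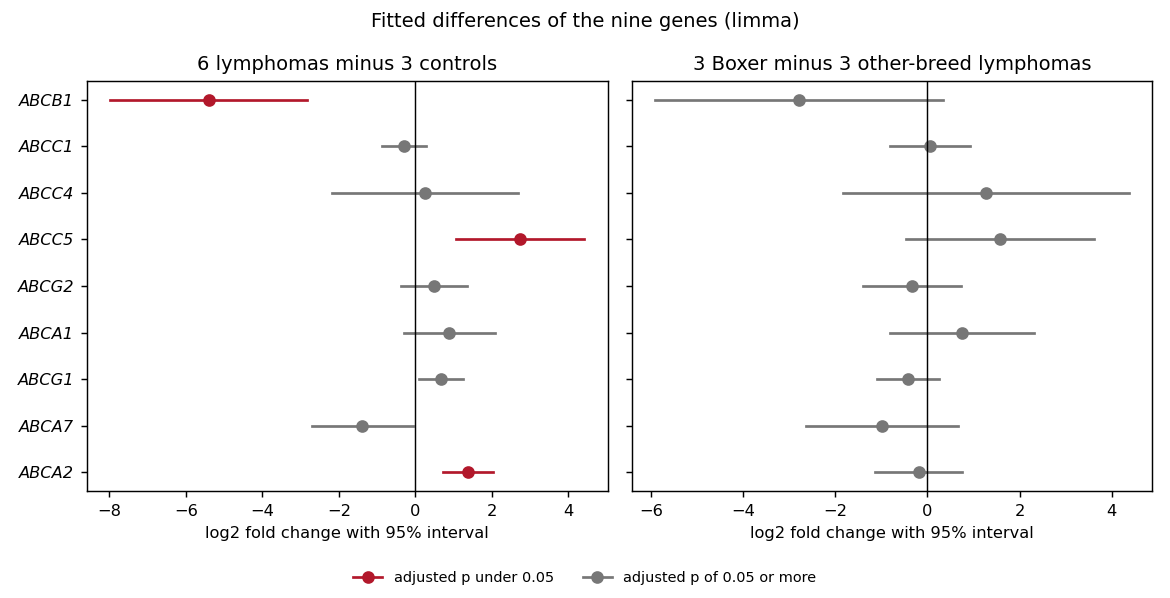
Fitted log2 differences with 95% intervals from limma for each transporter gene, for 6 lymphomas minus 3 controls (left) and 3 Boxer minus 3 other-breed lymphomas (right); red marks an adjusted p under 0.05. ABCB1 (-5.40), ABCC5 (2.74) and ABCA2 (1.39) are red on the left, and no gene is red on the right.

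Of 39 other ABC family genes 34 were found and 23 were tested between lymphomas and controls. Of these 2 rose and 5 fell, or 8.7% and 21.7%, against 19.4% and 15.7% of all features, with a median log2 fold change of -0.08. Without other-breed lymphomas 1 and 2, 3 rose and 6 fell. ABCB6, a porphyrin transporter, fell by 1.05 ± 0.15 (SE, limma adjusted p = 6.46e-04) and the peptide transporter TAP1 by 1.22 ± 0.30. ABCA4, a retinoid transporter of photoreceptors, had 0 to 28.7 normalised reads in lymphomas and 95.5 to 113 in controls and fell by 4.05 ± 1.04.

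ABCC9, a regulatory subunit of potassium channels, and the translation factor gene ABCF1 rose, by 4.28 ± 1.19 and 0.70 ± 0.25 on the log2 scale (SE, limma adjusted p = 0.0192 and 0.0494). ABCC9 had 73.9, 144 and 205 normalised reads in Boxer lymphomas 1 to 3 and 10.6, 10.3 and 292 in other-breed lymphomas 1 to 3, against 0 to 8.19 in controls. Summed stromal markers were 3043, 2265 and 11706 in the Boxer lymphomas and 147, 209.8 and 8075 in the other-breed lymphomas, so the pair with the least ABCC9 also had the least stromal marker RNA; the part of stroma was not tested. ABCB4, ABCB11, ABCG5 and ABCG8, which serve bile formation and sterol excretion in the liver and gut, were too low to test.

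Sterol handling genes moved in both directions. Of 24 found LXR and cholesterol genes, all tested, 8 rose and 4 fell (33.3% and 16.7%, against 19.4% and 15.7% of all features), with a median log2 fold change of 0.87. The lipoprotein receptor SCARB1 rose by 2.11 ± 0.21, the lysosomal cholesterol carrier NPC2 by 1.95 ± 0.35, the sterol transfer protein STARD4 by 1.60 ± 0.31 and APOE by 6.68 ± 0.97 (SE). APOE is a macrophage product, and its lowest lymphoma value, 122, was in other-breed lymphoma 1, where macrophage markers were lowest, and the part of macrophages was not tested. Falling genes were the sterol sulfotransferase SULT2B1 (-7.40), MYLIP (-1.90), an LXR-induced ubiquitin ligase, INSIG2 (-1.04), which holds back sterol synthesis, and NR1H2 (-1.11), which encodes LXR beta. NR1H3, which encodes LXR alpha, rose by 1.23; it was named after its value had been seen. Without other-breed lymphomas 1 and 2, 13 rose and 4 fell.

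Among 14 found genes of glutathione and conjugation, 13 were tested, 4 rose and 1 fell (30.8% and 7.69%, against 19.4% and 15.7% of all features, median 0.55). The haem oxygenase HMOX1 rose by 4.87 ± 0.68, the thioredoxin reductase TXNRD1 by 0.82 ± 0.16, the microsomal transferase MGST1 by 3.63 ± 1.14 and GCLM by 0.81 ± 0.29 (SE), while GCLC fell by 0.92 ± 0.18. GCLC and GCLM are the catalytic and modifier subunits of the enzyme that starts glutathione synthesis. Of the tested markers, 9 of 10 for macrophages and 4 of 4 for neutrophils rose. The part of such cells in the changes of this list was not tested. Of 7 tested xenobiotic and nuclear receptors PPARD rose (0.93) and ARNT (-0.74) and RXRB (-0.74) fell (14.3% and 28.6%, against the same background), with a list median of 0.06. Without other-breed lymphomas 1 and 2, 4 glutathione genes rose and 1 fell, and 1 receptor gene rose and 2 fell. NR1I2, which encodes the drug-sensing pregnane X receptor that induces ABCB1 in the liver, had 0.85 to 3.79 normalised reads in lymphomas and 0 to 2.73 in controls and was too low to test.

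Of 15 tested targets and enzymes of lymphoma drugs 8 rose and 1 fell (53.3% and 6.67%, against 19.4% and 15.7% of all features, median 0.55). TOP2A, the target of doxorubicin, rose by 4.16 ± 0.28, the tubulin gene TUBB6 by 3.26 ± 0.20, the cytarabine-activating kinase DCK by 3.13 ± 0.27 and the thymidylate synthase TYMS by 1.39 ± 0.19 (SE). TSC22D3, a glucocorticoid-induced gene, fell by 2.65 ± 0.34. Without other-breed lymphomas 1 and 2, 7 rose and 2 fell. Of 10 tested genes that make, sense or degrade lipid mediators carried by ABCC1 and ABCC4, 3 rose and 1 fell (30% and 10%, against the same background, median 2.68). The sphingosine-1-phosphate lyase SGPL1 rose by 2.78 ± 0.32, the prostaglandin synthase PTGS1 by 4.01 ± 0.84 and the leukotriene enzyme ALOX5 by 3.29 ± 0.83 (SE), and the sphingosine-1-phosphate receptor S1PR1 fell by 3.89 ± 0.70. Without other-breed lymphomas 1 and 2, 5 rose and 1 fell. ALOX5 was highest, at 253, in other-breed lymphoma 3, where the macrophage markers were highest as well. Summed neutrophil, dendritic cell and endothelial markers were also highest among the lymphomas in that library, and the part of any of these cells was not tested.

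**Figure D5:**
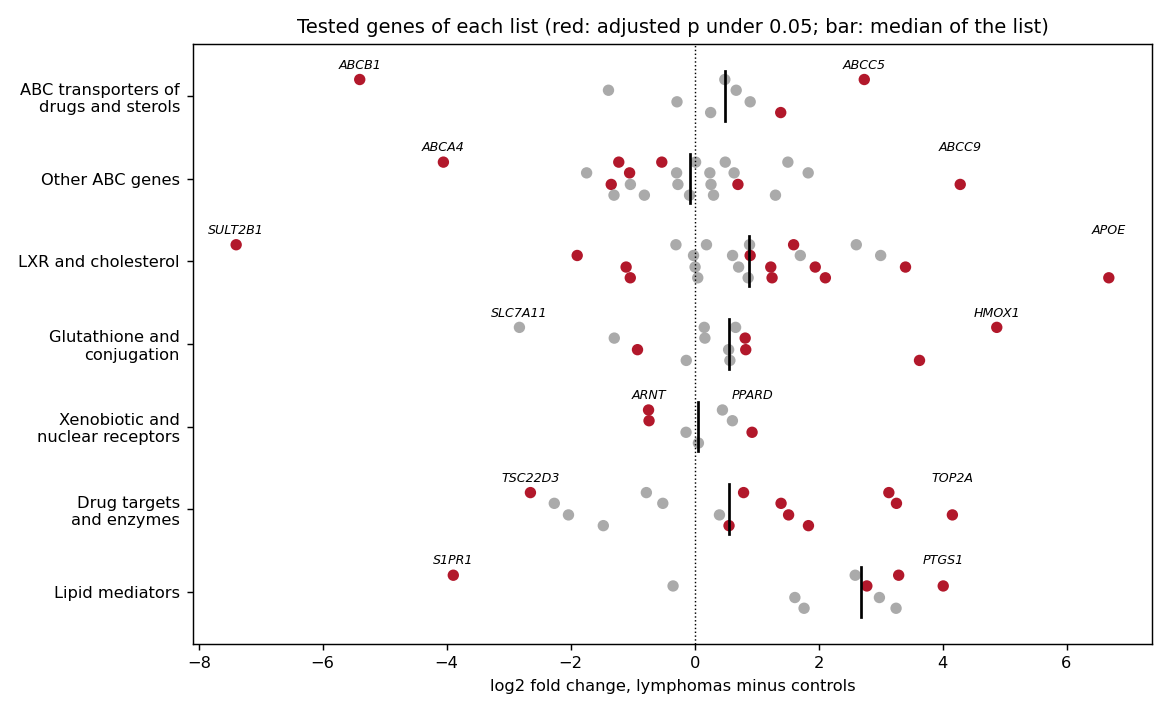
Log2 fold changes, lymphomas minus controls, of the tested genes of each list, with red points past an adjusted p of 0.05 by limma, a bar at each list's median and the lowest and highest gene of each list named. The medians run from -0.08 for other ABC genes to 2.68 for lipid mediators, and ABCB1 (-5.40) is lower than any of the other ABC genes, the lowest of which is ABCA4 (-4.05).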

How the data were processed

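The dog build CanFam3.1 and the tools TopHat2, HTSeq and DESeq2 are named per the submitters' processing notes; versions and strand settings are not given in the sources used here. Overlapping genes may therefore share reads. The deposited signal of a gene is its number of reads scaled by the authors with a single factor for the library. All values (100% per library, tolerance 0.01 reads) were whole multiples of 1 read, so reads were recovered. Features reaching 10 in 3 or more compared libraries were tested with limma 3.58.1 (R 4.3.3) on log2(value + 1). The fit used trend and empirical Bayes moderation and Benjamini-Hochberg adjustment. The pseudocount shrinks changes of low genes, but a mean of log2 values also gives weight to libraries near 0. For ABCB1 the limma change was therefore larger than that of the count models. edgeR 4.0.16 and DESeq2 1.42.0 on recovered reads, other scalings, filters and pseudocounts, covariates and left-out libraries were alternatives. Fits were run on simulated reads with the same dispersion for every gene and group. That check does not cover the unequal spread of lymphomas and controls seen here. Of each gene list, up to 4 genes per direction with the smallest p are named, apart from genes not reported here, and all 9 transporters. The transporters and lists were chosen with earlier results of these data known. ABCB1 neighbours and list counts without other-breed lymphomas 1 and 2 were added after seeing the data. No sequences or coordinates are given.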

Additional observations from a re-analysis of the deposited data

Results flagged for a closer look

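Among the 6 lymphomas, a single library stood far from the others in 4 of 18 sets of values examined. The gaps were taken on normalised reads, without the log2 scale used for the fits. A chance rate of about 1 in 20 assumes normally distributed values and separate sets. The 18 sets share the same libraries and the reads were not log2 transformed, so the count cannot be weighed against that rate. Whether the same libraries stand apart on the log2 scale was not tested. ABCB1 was highest at 90.2 normalised reads in other-breed lymphoma 3, with 0 to 33.2 in the other lymphomas. ABCC5 was highest at 809 in Boxer lymphoma 3, with 35.0 to 315 in the others. Summed B cell markers reached 6224 in other-breed lymphoma 1, with 472 to 2271 in the others, and summed cytotoxic and killer cell markers reached 6232 in Boxer lymphoma 2, with 133 to 1519.6 in the others.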

How the results depend on the processing

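ABCB1 fell and ABCA2 rose past the threshold in all 22 alternatives to the main lymphoma fit, with log2 fold changes of -6.80 to -4.01 and 1.16 to 2.26. ABCC5 kept its direction in all 22 and passed in 18. With age as a covariate the fold changes were -6.65 for ABCB1, 4.38 for ABCC5 and 2.26 for ABCA2, and all features numbered 1048 higher and 885 lower; all controls were 1 year old. Leaving out single libraries gave 1866 to 3291 features higher and 1194 to 2605 lower, and 1 to 3 transporter genes higher. Without controls 1, 2 and 3 in turn 1328, 1194 and 1315 features were lower, and 1866 and 1999 were higher without controls 2 and 3. DESeq2 called 2 transporter genes lower, ABCB1 and ABCA7, and 3 higher, beside 2676 of all features lower and 4074 higher. Between Boxer and other-breed lymphomas all features numbered 44 higher and 58 lower by DESeq2, 2 lower with a pseudocount of 5, and 0 to 1 in each direction without single libraries.

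Signs changed for genes that passed in neither fit. ABCC4 was -2.45 with age, -1.18 with sex and -0.38 with other-breed lymphomas only, and -0.60 to 0.86 without single libraries. ABCA1 was -0.43 with age. Between the lymphoma groups ABCC1 was -0.054 by edgeR, -0.050 by DESeq2 and -0.29 to 0.37 without single libraries, and ABCA2 was -0.56 to 0.11. The cause was not tested. Title numbers did not pair the libraries: 1 of 9 same-numbered pairs had a correlation of deviations over 0.1, and 1 of 9 libraries correlated best with its own number. With the replicate block 2752 features were higher and 2158 lower, with 2 and 1 transporter genes, and 0 between the lymphoma groups.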
